A study of Mus musculus with 23 samples.

Results

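The genes described here encode the Golgi enzymes that build and cap mucin-type and other terminal glycans. They are the transferases that attach N-acetylgalactosamine, galactose, N-acetylglucosamine, fucose and sialic acid, and the sulfotransferases that add sulfate to galactose. The rule took genes by symbol, as the numbered members of the *Galnt*, *C1galt*, *Gcnt*, *B3gnt*, *B3galt*, *B4galt*, *B4galnt*, *Fut*, *St3gal*, *St6gal*, *St6galnac*, *St8sia* and *Gal3st* families together with *C1galt1c1*. It gave 81 gene rows with 80 symbols out of 55449 genes, since *St6galnac2* has 2 rows. The family itself was picked with earlier results of these data known, so its counts and medians are descriptions. All mice were male Cdx2Apc f/w animals on C57BL/6, 6 to 8 weeks old at the start, and all received a 60% high-fat diet (HFD). In this genotype a Cre recombinase under the Cdx2 promoter, which acts in intestinal epithelium, deletes 1 floxed Apc allele, so every group carried the deletion. Per the study's methods, mice drank water with the antibiotics neomycin, streptomycin and bacitracin before colonization. The mice were colonized 2 times a week with *Bacteroides fragilis* (BF) 638R carrying an empty vector (BF BSHlow) or with the same strain carrying a bile salt hydrolase gene (BF BSHhigh), whose product deconjugates bile acids. Bulk RNA-seq covered normal colon after 2 weeks (4 BSHlow, 4 BSHhigh), and non-tumor tissues (4 and 4) and tumors (4 and 3) after 12 weeks, 23 libraries in all.

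As background, a mucin-type glycan starts when a polypeptide N-acetylgalactosaminyltransferase (GALNT) puts a sugar on serine or threonine in the Golgi. The first sugar is extended into core 1 or core 3, branched into core 2 or core 4, lengthened with galactose and N-acetylglucosamine, and ended with fucose, sialic acid or sulfate. In the colon these chains coat the secreted mucin of goblet cells and the membrane mucins of colonocytes, and many of the capping enzymes also act on glycolipids and N-linked glycans.

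Gene counts per library summed to between 12401388 and 17903008, with a median of 15874872. Levels are given in CPM, counts scaled to a common library size. Differences are log2 fold changes from edgeR's quasi-likelihood test. The standard errors (SE) were derived from it, as the absolute log2 fold change over the square root of the F statistic. The p-values were adjusted over all genes tested by the Benjamini-Hochberg method with a threshold of 0.05, and "rose" or "fell" is written of those that passed. Of the 81 members, 69 reached a group mean of 1 CPM in some group, and 58 passed the low-count filter in all 7 comparisons of 2 groups. The other 12 stayed under 1 CPM in every group: *B3galt1*, *B3gnt4*, *Fut7*, *Gal3st3*, *Gal3st4*, *Galnt9*, *Galnt13*, *Galnt14*, *Gcnt7*, *St6gal2*, *St6galnac1* and *St8sia3*. No read was counted for *Gcnt7*. The labels do not say whether the libraries of a group came from different mice, so p-values measure the spread between these libraries. The columns of the 3 BSHhigh tumors are headed with names of BSHlow tumors, and their group comes from the study's supplementary table, which lists the same counts under BSHhigh tumors. Every value given for BSHhigh tumors rests on that assignment, and the libraries are called a, b and c.

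Together the members took 0.613% to 0.706% of all gene counts in non-tumor tissues of BSHlow mice and 0.726% to 0.779% in those of BSHhigh mice. In tumors the share was 0.231% to 0.245% with BSHlow, and 0.394%, 0.326% and 0.268% in BSHhigh tumors a, b and c. Normal colon at 2 weeks lay between, at 0.408% to 0.545% with BSHlow and 0.465% to 0.583% with BSHhigh. Tumors and non-tumor tissues did not overlap in either strain, and the 3 BSHhigh tumors lay above the 4 BSHlow tumors. In such bulk tissue, fewer cells of a type and less RNA per cell cannot be told apart.

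**Figure D1:**
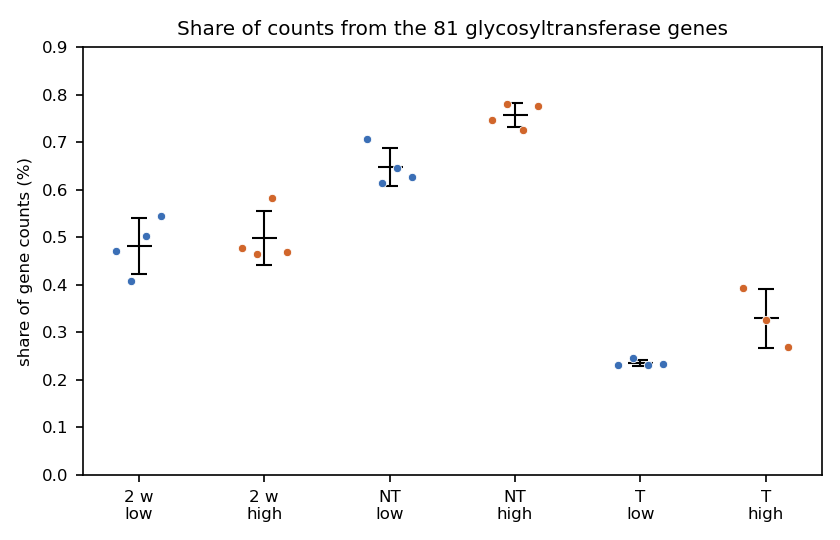
Share of all gene counts, in percent, taken by the 81 glycosyltransferase rows in each library (points; blue BSHlow, orange BSHhigh), with the group mean ± SD in black, for 2-week normal colon, 12-week non-tumor tissues and 12-week tumors. The tumor libraries lie between 0.231% and 0.394%, all below the other 16 libraries.

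Compared per kilobase of annotated exon, the leading members differed between tissues. In 2-week colon *B4galnt2*, which makes the Sda antigen, had the highest level, at 336 ± 64.7 CPM per kilobase with BSHlow and 258 ± 34.95 with BSHhigh (SD, n = 4 each). Next came *Gcnt3*, the core 2 and core 4 branching enzyme of mucus-secreting tissue, at 122 ± 13.5 with BSHlow, and *St3gal4*, an α2,3-sialyltransferase that caps galactose, at 204 ± 16.5 with BSHhigh. In 12-week non-tumor tissues of BSHlow mice *B3gnt7*, which extends chains with N-acetylglucosamine, stood at 179 ± 37.5, within its spread of *St6galnac6*, an α2,6-sialyltransferase, at 166 ± 16.6. The order of this pair was the opposite in BSHhigh mice, with *St6galnac6* at 227 ± 27.7 and *B3gnt7* at 179.6 ± 27.4. The highest mean in tumors was that of *B4galt1*, a widely expressed maker of N-acetyllactosamine, at 38.5 ± 3.56 with BSHlow and 48.3 ± 5.16 with BSHhigh (n = 3). *Galnt1*, a widely expressed initiating enzyme, followed in BSHlow tumors at 33.02 ± 4.55, and these levels overlapped between libraries. In BSHhigh tumors *St6galnac6* followed at 42.2 ± 32.4, with 77.8 in tumor a, where it was above *B4galt1* at 53.99.

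The comparison of tumors with non-tumor tissues asks which of these enzymes differ in the tumors of each colonized group. In BSHlow mice 35 of the 68 members tested fell (51.5%, against 29.7% of all 15179 genes tested) and 12 rose (17.6%, against 31.6%). In BSHhigh mice 36 of 68 fell (52.9%, against 28.8% of 15653 genes) and 11 rose (16.2%, against 30.8%). The median log2 fold change of the members was -1.0 with BSHlow and -0.92 with BSHhigh, beside 0.05 and 0.04 over all genes. In each strain 32 members fell by more than 2-fold, against 17.6% and 15% of all genes with BSHlow and BSHhigh, and 4 rose by more than 2-fold, against 16.1% and 14.6%. All tumors lay below all non-tumor tissues for 34 members in each strain, against 27.7% of all genes with BSHlow and 29.4% with BSHhigh. They lay above for 13 and 11 members, against 30.6% and 32.8%.

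**Figure D2:**
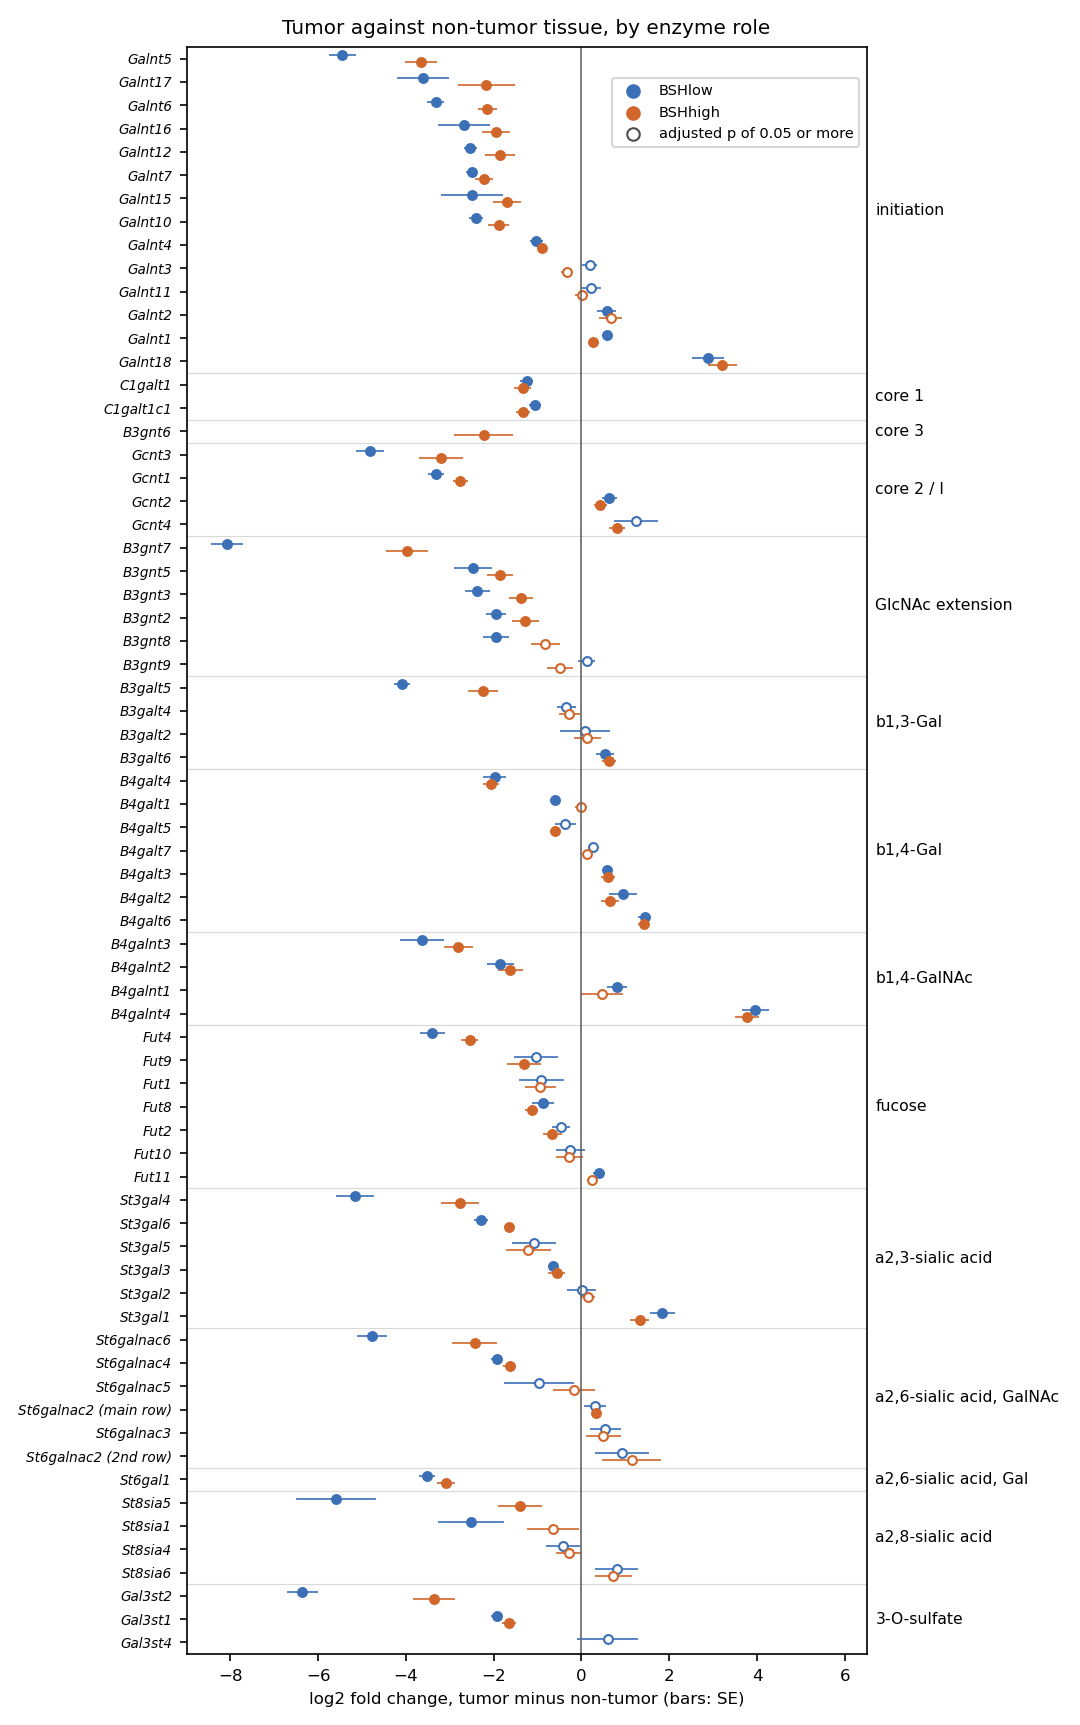
Log2 fold change, tumors minus non-tumor tissues, of each member tested (points; blue BSHlow, orange BSHhigh; bars SE; filled points passed the adjusted p threshold), grouped by enzyme role. *B3gnt7* lies lowest, at -8.08 with BSHlow and -3.97 with BSHhigh, and *B4galnt4* highest, at 3.96 and 3.77.

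Of the initiating GALNT enzymes 9 of the 14 tested fell with BSHlow and 9 of 14 with BSHhigh, while 3 and 2 rose. *Galnt5* stood at 35.7, 30.99, 39.1 and 34.2 CPM in BSHlow non-tumor tissues and at 0.933, 1.33, 0.572 and 0.391 CPM in BSHlow tumors. The groups lay far apart, and the log2 fold change was -5.46 ± 0.31 (SE, adjusted p = 2.2e-06), with -3.66 ± 0.36 (adjusted p = 0.00011) for BSHhigh. *Galnt6* fell by 3.32 ± 0.19 and 2.14 ± 0.21 on the log2 scale with BSHlow and BSHhigh. *Galnt7*, which acts on peptides that already carry a sugar, fell by 2.50 ± 0.13 and 2.22 ± 0.21. *Galnt12*, an enzyme of the gut, fell by 2.53 ± 0.15 and 1.86 ± 0.34, from 66.7 ± 10.6 to 11.7 ± 1.68 CPM with BSHlow (SD, n = 4 each). *Galnt4*, which overlaps *Poc1b* on the same strand, fell by 1.02 ± 0.16 and 0.90 ± 0.10, and *Galnt17* by 3.61 ± 0.59 and 2.17 ± 0.65. The widely expressed *Galnt1* rose by 0.59 ± 0.11 and 0.26 ± 0.09. Its BSHhigh call was lost with DESeq2, with another scaling, without the filter and in a fit over all 12-week libraries. *Galnt2* rose with BSHlow by 0.58 ± 0.22 and gave 0.67 ± 0.26 with BSHhigh, which did not pass. The BSHlow call on *Galnt2* was lost in 6 fits that left out 1 library and kept in 2. *Galnt18* rose by 2.88 ± 0.37 and 3.21 ± 0.33, from 4.22 ± 0.633 to 31.5 ± 17.7 CPM with BSHlow. *Galnt3*, another mucin-initiating enzyme, did not pass the test in either strain, at 0.19 ± 0.17 and -0.33 ± 0.14.

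Both core 1 genes fell in each strain. *C1galt1*, the core 1 synthase, fell from 260.3 ± 32.2 to 112 ± 21.1 CPM with BSHlow (a log2 change of -1.25 ± 0.15) and from 373 ± 61.2 to 148 ± 38.03 CPM with BSHhigh (-1.34 ± 0.19). *C1galt1c1*, the chaperone that the synthase needs, fell by 1.06 ± 0.13 and 1.33 ± 0.16. Of the core 2 enzymes *Gcnt3* stood at 132, 97.9, 119.5 and 112 CPM in BSHlow non-tumor tissues and at 3.88, 4.57, 6.34 and 1.76 CPM in BSHlow tumors. All 4 tumors were far below, and *Gcnt3* fell by 4.82 ± 0.32 on the log2 scale (adjusted p = 4.6e-06) and with BSHhigh fell by 3.20 ± 0.51 (adjusted p = 0.00097). *Gcnt1*, the other main core 2 enzyme, fell by 3.31 ± 0.18 and 2.76 ± 0.17, and *Gcnt2*, which makes the I branch, rose by 0.64 ± 0.16 and 0.43 ± 0.14. With BSHhigh the call on *Gcnt2* was lost in 5 fits that left out 1 library and kept in 2. *Gcnt4* rose with BSHhigh by 0.81 ± 0.19 and gave 1.24 ± 0.51 with BSHlow, which did not pass. *B3gnt6*, the core 3 synthase, was already low in non-tumor tissues, at 0.273 to 1.26 CPM with BSHlow and 0.788 to 5.50 CPM with BSHhigh. It fell with BSHhigh by 2.23 ± 0.67 and did not pass the filter with BSHlow, where tumors held 0 to 0.442 CPM.

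The largest fall was in chain extension. *B3gnt7* stood at 773, 791, 879 and 518 CPM in BSHlow non-tumor tissues and at 4.47, 2.82, 1.96 and 1.76 CPM in BSHlow tumors. It fell by 8.08 ± 0.36 on the log2 scale (adjusted p = 8.5e-07) and with BSHhigh fell by 3.97 ± 0.47 (adjusted p = 0.00026). *B3galt5*, which makes type 1 chains, stood at 841, 653, 695 and 682 CPM in BSHlow non-tumor tissues and at 32.3, 56.03, 42.5 and 41.2 CPM in BSHlow tumors. Again no tumor reached the non-tumor range, and *B3galt5* fell by 4.08 ± 0.18 (adjusted p = 7.9e-07) and with BSHhigh fell by 2.24 ± 0.34 (adjusted p = 0.00084). *B3galt6*, which acts in the linker of proteoglycans, rose by 0.54 ± 0.19 and 0.63 ± 0.16. The β1,4-galactosyltransferases went both ways, with *B4galt4* falling by 1.98 ± 0.26 and 2.07 ± 0.18. *B4galt6*, a lactosylceramide synthase, rose by 1.44 ± 0.15 and 1.42 ± 0.13, *B4galt2* by 0.94 ± 0.32 and 0.65 ± 0.20 and *B4galt3* by 0.59 ± 0.09 and 0.61 ± 0.16. In fits that left out 1 library the call on *B4galt2* was lost in 5 with BSHlow and 3 with BSHhigh, and kept in 3 and 4.

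The β1,4-N-acetylgalactosamine enzymes were split as well. *B4galnt4*, one of the pair that makes the LacdiNAc unit, stood at 2.97, 1.38, 1.71 and 4.002 CPM in BSHlow non-tumor tissues and at 36.8, 39.4, 39.5 and 43.5 CPM in BSHlow tumors. It rose by 3.96 ± 0.31 (adjusted p = 1.0e-05) and with BSHhigh by 3.77 ± 0.28 (adjusted p = 4.0e-05), without overlap in either strain. *B4galnt3*, the other of the pair, fell by 3.63 ± 0.49 and 2.80 ± 0.33, and *B4galnt2* fell by 1.85 ± 0.31 and 1.63 ± 0.28. *B4galnt1*, the ganglioside GM2 and GD2 synthase, rose with BSHlow by 0.81 ± 0.23 and gave 0.46 ± 0.48 with BSHhigh, which did not pass. Exons of *B4galnt1*, *B4galnt2* and *B4galnt3*, and none of *B4galnt4*, overlap a gene on the other strand in the annotation, and the strand setting of the counting is not given in the sources used here.

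Among the fucosyltransferases *Fut4*, which makes Lewis x structures, fell from 158 ± 11.4 to 15.3 ± 5.81 CPM with BSHlow and from 148 ± 12.2 to 25.5 ± 7.53 CPM with BSHhigh. *Fut8*, which adds core fucose to N-glycans, fell by 0.88 ± 0.25 and 1.14 ± 0.16 on the log2 scale. *Fut2*, the α1,2-fucosyltransferase of the secretor antigens, fell with BSHhigh by 0.66 ± 0.21 and gave -0.47 ± 0.20 with BSHlow, which did not pass. The α2,3-sialyltransferase *St3gal4* fell by 5.16 ± 0.44 and 2.77 ± 0.43, from 203 to 650.1 CPM in BSHlow non-tumor tissues to 6.84 to 14.3 CPM in BSHlow tumors. *St3gal6*, which also caps lactosamine chains, fell by 2.29 ± 0.15 and 1.65 ± 0.13. *St3gal1*, which sialylates core 1, rose by 1.84 ± 0.29 and 1.33 ± 0.22, from 12.1 ± 5.58 to 43.8 ± 6.43 CPM with BSHlow. Of the α2,6-sialyltransferases *St6galnac6* fell by 4.78 ± 0.34 and 2.44 ± 0.51, and *St6gal1*, which acts on N-glycans, by 3.51 ± 0.18 and 3.08 ± 0.21. *St6galnac1*, the sialyl-Tn enzyme, did not reach a group mean of 1 CPM and is given no difference.

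*Gal3st2*, which sulfates terminal galactose, stood at 61.6, 42.3, 48.3 and 92.7 CPM in BSHlow non-tumor tissues and at 1.08, 0.564, 0.668 and 0.684 CPM in BSHlow tumors. It fell by 6.36 ± 0.35 (adjusted p = 2.0e-06) and with BSHhigh fell by 3.35 ± 0.48 (adjusted p = 0.00059). The gene has near-identical neighbouring copies and its counts were not whole in 23 libraries, so reads of the copies may be split between them. *St8sia5*, a ganglioside sialyltransferase, had 616 reads over the 4 BSHlow non-tumor libraries and 17 over the 4 BSHlow tumors, a ratio of 38.7 with a 95% counting interval of 24 to 66.9. Counting intervals cover counting error only.

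Markers of several cell types moved with these differences. All 9 goblet cell markers fell in both strains, from summed levels of 13000 to 17780 to 139 to 243 CPM with BSHlow and from 17550 to 35580 to 797 to 4921 CPM with BSHhigh. Of 7 markers of mature colonocytes 7 fell with BSHlow and 5 with BSHhigh, where the sums were 2170 to 2902 CPM in non-tumor tissues and 158 to 804 CPM in tumors. Of 7 general epithelial markers 6 fell and 1 rose with BSHlow, with sums of 7369 to 9803 and 3666 to 6270 CPM. All 6 smooth muscle markers and all 5 B and plasma cell markers fell in both strains, and 4 of 5 fibroblast markers rose with BSHhigh. No marker of these 6 lists was at 0 in a whole group. The part of the cell makeup in the enzyme differences was not tested.

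Genes that supply these enzymes with activated sugars were also lower in tumors. Of 21 genes of sugar nucleotide synthesis 18 fell and 1 rose with BSHlow (median log2 fold change -0.91), and 18 fell and 2 rose with BSHhigh (median -0.86). *Gfpt1*, the entry enzyme of hexosamine synthesis, fell from a mean of 1189 to 125 CPM with BSHlow, and *Gne*, which starts sialic acid synthesis, from 477 to 124 CPM. Of 7 Golgi sugar nucleotide transporters 5 fell and 1 rose in each strain, with *Slc35a1*, the carrier of CMP-sialic acid, at -2.45 ± 0.10 in BSHlow mice. Among 9 further terminal enzymes tested 5 fell and 1 rose with BSHlow, and 6 fell and 2 rose with BSHhigh. Of these *Chst4*, a sulfotransferase, was at -5.17 ± 0.40 with BSHlow. Of 7 sialidases and other enzymes that remove mucin sugars 6 fell in each strain and none rose. Among 8 mucin genes tested 5 fell and 2 rose with BSHlow, with *Muc2*, the gel-forming mucin of goblet cells, falling from a mean of 1992 to 22.9 CPM and *Muc6*, a secreted mucin, rising from 0.351 to 28.9 CPM.

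The comparison of BSHhigh with BSHlow tumors asks how these genes differ with the bacterial enzyme within tumors. Of the 69 members tested 3 were higher, *B3gnt7*, *St8sia5* and *B3galt5*, and none was lower (4.35% higher, against 0.47% of all 15325 genes, with 0.0392% of genes lower). At an unadjusted p under 0.05 edgeR gave 19 members, in either direction. The share of all genes at that threshold is not given here, so this count does not tell members from other genes. The median log2 fold change of the members was 0.32, beside -0.03 over all genes. For 14 members (20.3%) all 3 BSHhigh tumors lay above all 4 BSHlow tumors, against 7.93% of all genes, and for none did they lie below, against 3.89%. The same tumor libraries entered the comparisons above, so the values are not independent of them.

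*B3gnt7* lies on chromosome 1 (mm10, 86302832 to 86307305, plus strand), *B3galt5* on chromosome 16 (96235801 to 96319859, plus strand) and *St3gal4*, the member that differed at 2 weeks, on chromosome 9 (35046576 to 35119268, minus strand). The 250 bases before their RefSeq starts (build GRCm38.p6) are shown because these genes carry the strain differences described next. RefSeq windows were at hand for 57 of the 80 member symbols. Capitals mark matches on either strand to 5 motifs, TTTATNG for the CDX-type site, ATCAAAG for the TCF/LEF-type site, GGGCGG for the GC box, CACGTG for the E-box and TATAAA for the TATA box. *B3galt5* has 3 listed starts, of which the outermost and the next are shown, and counts per gene do not tell which was used. The windows, in the order printed, are chr1:86302971-86303220 (plus strand), chr16:96235551-96235800 (plus strand), chr16:96273263-96273512 (plus strand) and chr9:35116865-35117114 (minus strand).
B3gnt7: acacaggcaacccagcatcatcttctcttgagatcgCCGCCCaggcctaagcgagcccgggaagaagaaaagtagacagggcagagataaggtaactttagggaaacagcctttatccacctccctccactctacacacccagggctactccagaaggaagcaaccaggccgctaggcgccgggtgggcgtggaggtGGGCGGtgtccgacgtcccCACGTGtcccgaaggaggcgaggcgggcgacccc
B3galt5, outermost start: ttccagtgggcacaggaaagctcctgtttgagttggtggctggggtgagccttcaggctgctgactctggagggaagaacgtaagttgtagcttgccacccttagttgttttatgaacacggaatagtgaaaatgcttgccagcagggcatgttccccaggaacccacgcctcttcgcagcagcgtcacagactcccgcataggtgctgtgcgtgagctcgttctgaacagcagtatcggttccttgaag
B3galt5, next start: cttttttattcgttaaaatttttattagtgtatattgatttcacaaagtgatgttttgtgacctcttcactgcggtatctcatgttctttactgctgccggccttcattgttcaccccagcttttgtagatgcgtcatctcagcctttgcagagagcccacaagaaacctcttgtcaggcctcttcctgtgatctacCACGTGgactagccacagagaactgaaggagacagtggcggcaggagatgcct
St3gal4: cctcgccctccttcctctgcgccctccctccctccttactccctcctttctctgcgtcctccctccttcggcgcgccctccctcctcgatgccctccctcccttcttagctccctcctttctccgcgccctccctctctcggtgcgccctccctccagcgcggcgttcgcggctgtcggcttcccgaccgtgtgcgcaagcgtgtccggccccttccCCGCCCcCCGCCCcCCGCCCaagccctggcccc

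GC boxes stood in the windows of *B3gnt7* and *St3gal4*, and in 32.7% of all 32851 RefSeq windows of this length against 48.1% of the 79 member windows. The E-box stood in the window of *B3gnt7* and in that of the next *B3galt5* start, and in 6.02% of all windows against 6.33% of the member windows. The CDX-type, TCF/LEF-type and TATA letters were not in the 4 windows printed, and were in 9.81%, 3.21% and 12.4% of all windows against 3.8%, 1.27% and 1.27% of the member windows. A match is a run of letters and was not tested as a binding site.

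*B3gnt7* stood at 80.8, 43.6 and 19.03 CPM in BSHhigh tumors a, b and c and at 4.47, 2.82, 1.96 and 1.76 CPM in BSHlow tumors. Every BSHhigh tumor was above every BSHlow tumor, and all 7 were below the lowest non-tumor tissue, at 518 CPM. The log2 fold change was 4.10 ± 0.52 (adjusted p = 0.034). *B3galt5* stood at 274, 204 and 91 CPM in BSHhigh tumors, against 32.3 to 56.03 CPM in BSHlow tumors, with a log2 fold change of 2.13 ± 0.34 (adjusted p = 0.048). *St8sia5* had 159 reads over the 3 BSHhigh tumors and 17 over the 4 BSHlow tumors, with 2 to 5 in each BSHlow library. At 2.33, 3.71 and 1.48 against 0.0954 to 0.257 CPM the groups of *St8sia5* did not overlap, and the ratio was 11.9 (95% counting interval 7.22 to 21), with an adjusted p of 0.036 from edgeR. Exons of *B3gnt7* and *St8sia5*, and none of *B3galt5*, overlap a gene on the other strand.

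**Figure D3:**
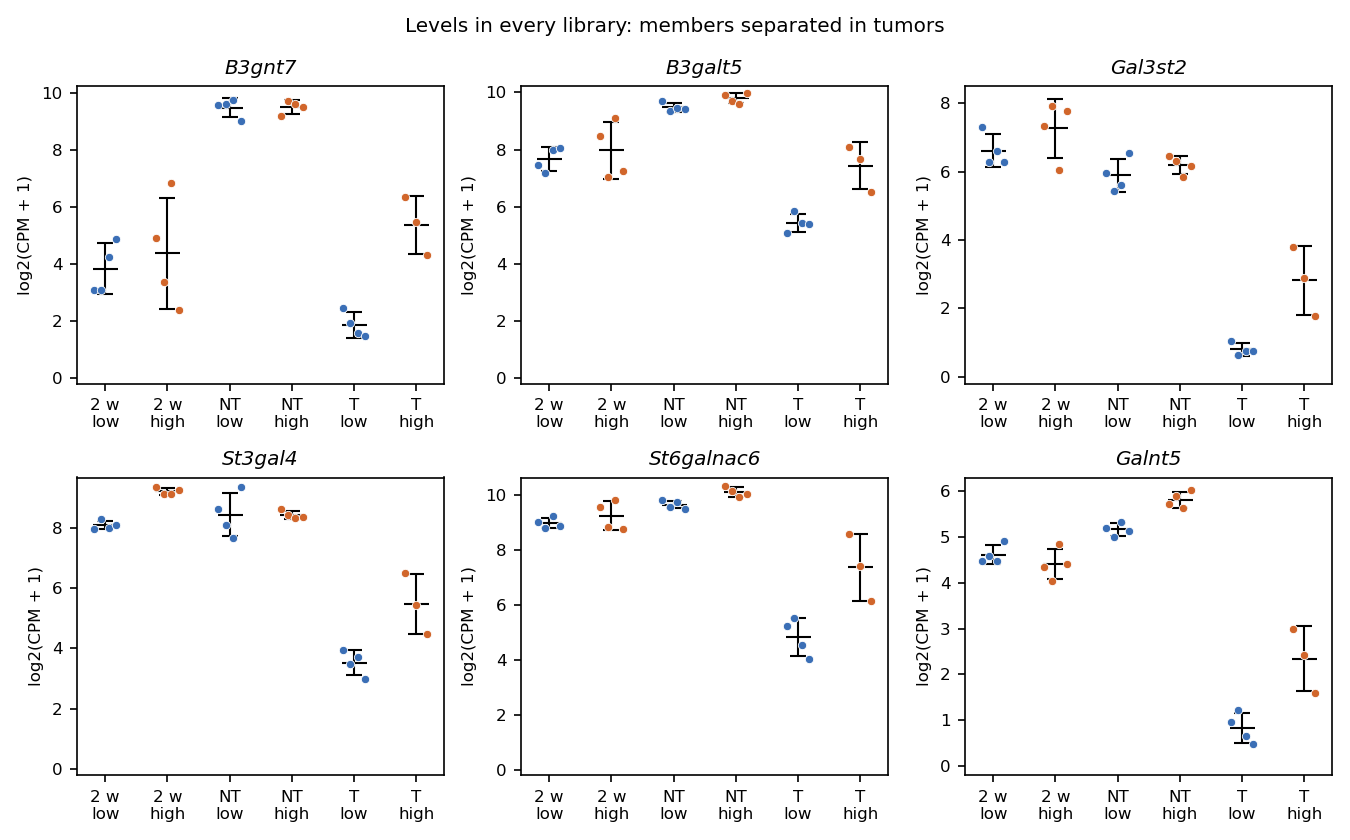
Levels of *B3gnt7*, *B3galt5*, *Gal3st2*, *St3gal4*, *St6galnac6* and *Galnt5* as log2(CPM + 1) in all 23 libraries (points; blue BSHlow, orange BSHhigh), by tissue and time. In all 6 panels the 3 BSHhigh tumors lie above the 4 BSHlow tumors and below every non-tumor tissue, for *B3gnt7* at 19.03 to 80.8 against 1.76 to 4.47 CPM.

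The other 11 members without overlap did not pass the test, with edgeR adjusted p-values between 0.054 and 0.53. They were *Gal3st2*, *St6galnac6*, *Galnt5*, *St3gal4*, *Galnt12*, *Galnt6*, *Galnt10*, *St6gal1*, *St3gal6*, *Galnt16* and *B4galt1*. *Gal3st2* stood at 12.9, 6.34 and 2.43 CPM in BSHhigh tumors against 0.564 to 1.08 CPM in BSHlow tumors, with a log2 fold change of 3.24 ± 0.55. *St6galnac6* stood at 374, 166 and 68.6 CPM against 15.2 to 45 CPM, with a log2 fold change of 2.77 ± 0.57. In *St3gal4* the values were 88.97, 42.7 and 21.3 CPM against 6.84 to 14.3 CPM, with a log2 fold change of 2.21 ± 0.45. Library a was the highest of the BSHhigh tumors for 12 of the 14 members and library c the lowest for 13.

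None of the other enzymes of the mucin cores and common caps passed edgeR's main test between tumors. The log2 fold change was 0.40 ± 0.19 for *C1galt1*, 0.17 ± 0.17 for *C1galt1c1*, 0.33 ± 0.20 for *Gcnt1*, 2.04 ± 0.57 for *Gcnt3* and -0.18 ± 0.31 for *Gcnt4*. Among initiating enzymes it was 0.01 ± 0.20 for *Galnt3*, 0.27 ± 0.19 for *Galnt4* and 1.28 ± 0.33 for *Galnt12*. The caps gave 0.90 ± 0.37 for *B4galnt2*, 0.32 ± 0.18 for *Fut2*, 0.34 ± 0.18 for *Fut8*, 0.80 ± 0.21 for *St6gal1*, -0.23 ± 0.17 for *St3gal1* and 0.57 ± 0.14 for *St3gal6*. DESeq2 and the edgeR fit over all 12-week libraries both called *Gcnt3*, *Galnt12*, *St6gal1* and *St3gal6* of these enzymes higher. *B3gnt6* did not pass the filter, with at most 0.672 CPM in a tumor.

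The number of members called depended on the test. DESeq2 called 13 higher in BSHhigh tumors (3.96% of its genes), an edgeR fit over all 12-week libraries called 14 (3.72%), an edgeR fit without the filter called 8 (1.26%), and limma-voom called 0 (0.261%). With a filter of more than 1 CPM in 3 libraries *B3galt5* did not pass, with an adjusted p of 0.050. Leaving out 1 library at a time, the log2 fold change of *B3gnt7* was 3.49 to 4.48. No member passed in the 6 fits that left out any library but c, where *B3gnt7* had adjusted p-values of 0.064 to 0.11. Without tumor c 7 members passed, and the adjusted p of *B3gnt7* was 0.0096. No share of all genes is given for these fits, so that count does not tell members from other genes.

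Markers of several cell types moved with the strain in the same tumors. Goblet markers summed to 4921, 1554 and 797 CPM in BSHhigh tumors a, b and c against 139 to 243 CPM in BSHlow tumors, and 2 of 9 were higher. Colonocyte markers summed to 804, 256 and 158 CPM against 52.1 to 136 CPM, and 3 of 7 were higher. Of the 7 general epithelial markers none passed, with sums of 4662 to 6467 and 3666 to 6270 CPM. B and plasma cell markers summed to 462 to 731 against 1.71 to 30.3 CPM, with 1 of 3 tested higher. T cell markers summed to 13.4 to 21.3 against 0.924 to 10.3 CPM and neuron and glia markers to 17.8 to 58.5 against 2.41 to 9.45 CPM, also without overlap, and none of the 4 and 2 tested passed. The part of these cells in the enzyme differences was not tested. Of the 21 sugar nucleotide genes and the 7 transporters none passed in this comparison. The membrane mucins *Muc1*, *Muc3* and *Muc13* were higher by 1.64 ± 0.24, 5.94 ± 0.80, 1.53 ± 0.24 in that order. The 10 mucin genes listed and counted summed to 1087 to 3301 CPM in BSHhigh tumors against 468 to 584 CPM in BSHlow tumors. Values of the other listed mucins, *Muc2* among them, are not given for this comparison.

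The interaction term asks whether the tumor difference itself differed between the strains. It was positive for 3 of 73 members tested (4.11%, against 0.978% of all 16454 genes), meaning a smaller fall in BSHhigh mice, and negative for none (against 0.0122%). The value was 4.11 ± 0.54 for *B3gnt7* (adjusted p = 0.0048), 3.0 ± 0.62 for *Gal3st2* (adjusted p = 0.031) and 1.84 ± 0.37 for *B3galt5* (adjusted p = 0.027). The call on *B3gnt7* was lost in 0 of the 15 fits that left out 1 library, that on *Gal3st2* in 11 and that on *B3galt5* in 12. For *Gal3st2* and *B3galt5* the adjusted p reached 0.081 and 0.082. Between tumors alone the call on *B3gnt7* was lost in 6 of 7 such fits. The interaction uses the same tumor libraries, so it is not independent of the comparison between tumors. DESeq2 called 8 members (2.43% of its genes) and an edgeR fit over all 23 libraries 6 (1.59%). The fit over 23 libraries did not call *B3galt5*, which had an adjusted p of 0.10 there. With limma-voom no member passed (against 0% of genes), and *B3gnt7* had an adjusted p of 0.099. The interaction was also positive for 4 of the 9 goblet markers and 6 of the 7 colonocyte markers, and the part of these cells was not tested.

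**Figure D4:**
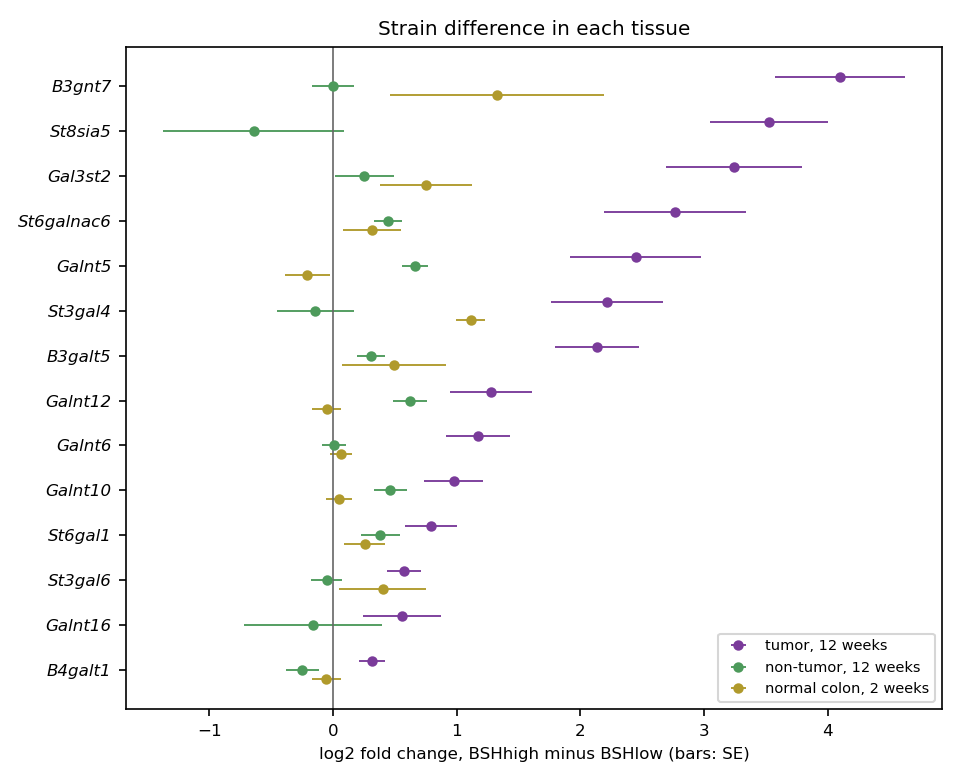
Log2 fold change, BSHhigh minus BSHlow (points; bars SE), of the 14 members that did not overlap in tumors, shown for tumors, 12-week non-tumor tissues and 2-week normal colon where tested. *B3gnt7* is at 4.10 in tumors and 0.00 in non-tumor tissues, and *St3gal4* at 2.21, -0.14 and, at 2 weeks, 1.11.

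In 12-week non-tumor tissues edgeR called 0 of 68 members between the strains, and 0% of all 14933 genes in either direction. At an unadjusted p under 0.05 it gave 21 members, in either direction, the smallest adjusted p being 0.21. That count too has no share of all genes beside it and does not tell members from other genes. DESeq2 called 8 members higher with BSHhigh (0.893% of its genes), namely *B4galt4*, *C1galt1*, *C1galt1c1*, *Galnt12*, *Galnt3*, *Galnt5*, *Galnt7* and *St6galnac6*, and limma-voom called 0. All BSHhigh libraries lay above all BSHlow libraries for 11 members (16.2%, against 3.23% of all genes) and below for 2 (2.94%, against 2.15%). The median log2 fold change of the members was 0.12, beside -0.01 over all genes.

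Those 11 members included both core 1 genes and 5 initiating enzymes. *C1galt1* stood at 448, 336, 312 and 397 CPM with BSHhigh against 293, 241, 226 and 282 CPM with BSHlow. The lowest BSHhigh tissue was above the highest BSHlow tissue, at a log2 fold change of 0.51 ± 0.13 (adjusted p = 0.35). *C1galt1c1* ranged over 63.05 to 90.8 CPM against 49.98 to 59.8 CPM, at 0.46 ± 0.11. *Galnt5* ranged over 48.7 to 64.1 CPM against 30.99 to 39.1 CPM, at 0.66 ± 0.10, and *Galnt12* over 83.4 to 119 CPM against 57.5 to 80.6 CPM, at 0.62 ± 0.14. *Galnt3*, *Galnt7* and *Galnt4* gave 0.55 ± 0.11, 0.45 ± 0.08 and 0.16 ± 0.07. The others were *B4galnt2* at 0.69 ± 0.20, *St6galnac6* at 0.45 ± 0.11, *B4galt4* at 0.51 ± 0.10 and *B3gnt9* at 0.80 ± 0.23, while *Galnt15* and *B3galt6* lay below, at -0.53 ± 0.16 and -0.33 ± 0.15. Goblet markers summed to 17550 to 35580 CPM with BSHhigh against 13000 to 17780 CPM with BSHlow, and none of the 9 passed the test.

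The remaining core and capping enzymes overlapped between the strains in this tissue. *B3gnt7* gave 0.00 ± 0.17, *St3gal4* -0.14 ± 0.31, *St3gal1* 0.30 ± 0.33, *St3gal6* -0.05 ± 0.13, *St6gal1* 0.38 ± 0.16, *Fut2* 0.53 ± 0.22, *Fut8* 0.62 ± 0.23 and *Gal3st2* 0.25 ± 0.24. The core 2 enzymes *Gcnt1*, *Gcnt3* and *Gcnt4* gave -0.19 ± 0.13, 0.43 ± 0.15 and 0.27 ± 0.45. *B3gnt6* gave 2.02 ± 0.67, at 0.788 to 5.50 CPM with BSHhigh and 0.273 to 1.26 CPM with BSHlow.

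After 2 weeks *St3gal4* was the only gene of 13752 that edgeR called between the strains (0.00727% of genes higher and 0% lower), and so the only one of the 59 members tested (1.69%). It stood at 652, 551, 559 and 617 CPM with BSHhigh and at 249, 314, 257 and 274 CPM with BSHlow. The groups lay apart, around means of 595 ± 48.3 and 273 ± 28.9 CPM (SD, n = 4 each), and the log2 fold change was 1.11 ± 0.11 (adjusted p = 0.025). DESeq2 and limma-voom called it as well, with adjusted p-values of 2.7e-19 and 0.016. Leaving out 1 library at a time gave log2 fold changes of 1.06 to 1.18, and the call was lost in 6 of 8 fits (all but those without BSHlow replicate 2 or 4), with adjusted p-values up to 0.17. In an edgeR fit over all 23 libraries the adjusted p of *St3gal4* was 0.59, at a log2 fold change of 1.12. Exons of *St3gal4* overlap 4930581F22Rik on the other strand. At 12 weeks *St3gal4* stood at 322 to 395 CPM with BSHhigh and 203 to 650.1 CPM with BSHlow in non-tumor tissues. Whether the strain difference itself changed between the times was not tested.

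At an unadjusted p under 0.05 edgeR gave 7 members at 2 weeks, in either direction, again without the share of all genes to compare. The groups did not overlap for 4 members (6.78%, against 2.09% of all genes higher and 1.55% lower), all higher with BSHhigh: *St3gal4*, *Gcnt1*, *B4galt5* and *B4galnt3*. *Gcnt1* stood at 111, 115, 82.8 and 117 CPM against 78.1, 51.9, 27.4 and 64.4 CPM, with a log2 fold change of 0.93 ± 0.26 (adjusted p = 0.61). *B4galt5*, a lactosylceramide synthase, gave 0.37 ± 0.10 and *B4galnt3* 0.29 ± 0.08. Other core and capping enzymes overlapped: *B3gnt6* gave -0.07 ± 0.32, *C1galt1* 0.04 ± 0.15, *C1galt1c1* 0.15 ± 0.22, *Gcnt3* -0.14 ± 0.12, *B4galnt2* -0.39 ± 0.16, *Fut2* -0.15 ± 0.16 and *St6gal1* 0.26 ± 0.17. The median over the members was 0.00, and 0.00 over all genes. Goblet markers summed to 12660 to 21420 CPM with BSHhigh and 15130 to 21210 CPM with BSHlow, and none passed the test.

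Non-tumor tissues at 12 weeks were also set beside normal colon at 2 weeks within each strain. With BSHlow 28 of 67 members rose (41.8%, against 22.4% of all 14555 genes) and 18 fell (26.9%, against 20.7%). With BSHhigh 28 of 66 rose (42.4%, against 27.1% of 14638 genes) and 17 fell (25.8%, against 23.9%). Time on the diet, time since the antibiotics, age and any difference in collection or sequencing cannot be told apart here. Markers of other tissue layers moved with this comparison, and their part in the values below was not tested. All 6 smooth muscle markers rose in both strains, from 45.3 to 174 to 1513 to 8473 CPM in sum with BSHlow and from 7.09 to 206 to 3286 to 4344 CPM with BSHhigh. All 5 fibroblast markers rose too, and 3 of 7 colonocyte markers fell in each strain. The colonocyte sums went from 13400 to 23610 CPM at 2 weeks to 1839 to 4603 CPM at 12 weeks with BSHlow. With BSHhigh they went from 11560 to 15480 CPM to 2170 to 2902 CPM.

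**Figure D5:**
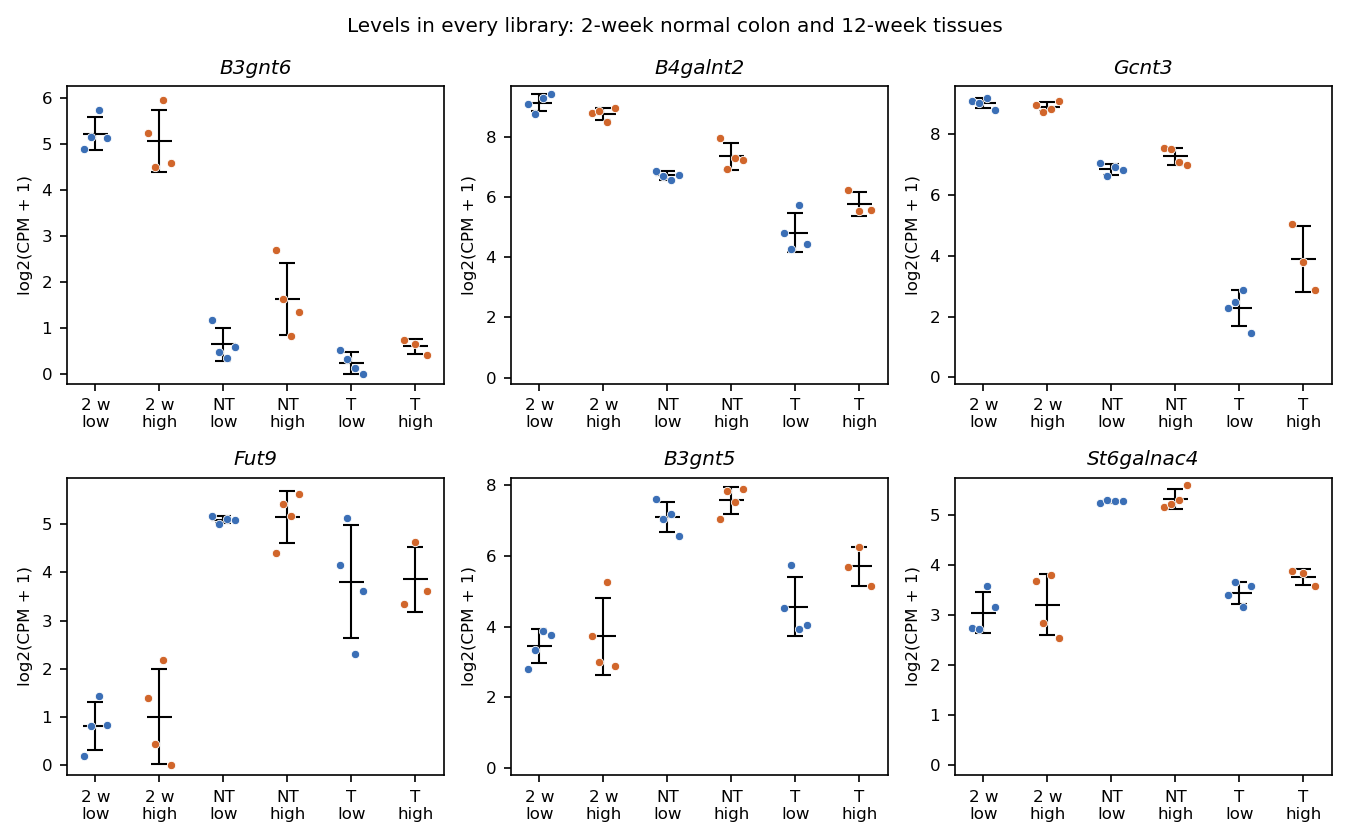
Levels of *B3gnt6*, *B4galnt2*, *Gcnt3*, *Fut9*, *B3gnt5* and *St6galnac4* as log2(CPM + 1) in all 23 libraries (points; blue BSHlow, orange BSHhigh), by time and tissue. The first 3 are higher at 2 weeks than in either 12-week tissue and the last 3 higher in 12-week non-tumor tissues than at 2 weeks, with *B4galnt2* at 438 to 693 against 94.02 to 118 CPM in BSHlow mice.

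*B3gnt6*, *Gcnt3*, *Gcnt4* and *B4galnt2* were lower at 12 weeks in both strains. *B3gnt6* stood at 29.1, 34.9, 52.5 and 34.1 CPM in BSHlow mice at 2 weeks and at 1.26, 0.401, 0.273 and 0.516 CPM at 12 weeks. No library overlapped, and *B3gnt6* fell by 5.97 ± 0.38 on the log2 scale (adjusted p = 8.8e-06) and with BSHhigh fell by 3.83 ± 0.55 (adjusted p = 0.00046). *Gcnt3* fell from 526 ± 57.9 to 115 ± 14.3 CPM with BSHlow and from 480.4 ± 51.02 to 156 ± 30.6 CPM with BSHhigh. *Gcnt4* fell by 3.43 ± 0.44 and 3.51 ± 0.36, *B4galnt2* by 2.47 ± 0.16 and 1.36 ± 0.21 and *B4galnt1* by 3.94 ± 0.23 and 3.12 ± 0.43. *Gcnt1*, the other main core 2 enzyme, went the other way, from 55.4 ± 21.6 to 151 ± 25.04 CPM with BSHlow, and rose by 1.43 ± 0.27 (adjusted p = 0.0027). With BSHhigh *Gcnt1* gave 0.33 ± 0.13, which did not pass. *St3gal1* fell by 1.89 ± 0.38 and 1.58 ± 0.30. *St3gal5*, the GM3 synthase, fell with BSHlow by 3.72 ± 0.65 and gave -0.82 ± 0.63 with BSHhigh, which did not pass, as *St3gal4* fell with BSHhigh by 0.77 ± 0.10 and gave 0.47 ± 0.31 with BSHlow. Whether these changes differed between the strains was not tested.

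Of the 6 tested enzymes that extend chains with N-acetylglucosamine 4 rose with BSHlow and 3 with BSHhigh, and none fell. *B3gnt7* stood at 7.58, 7.59, 18.1 and 28.8 CPM in BSHlow mice at 2 weeks and at 518 to 879 CPM at 12 weeks, and rose by 5.56 ± 0.47 (adjusted p = 3.6e-05). With BSHhigh, where 2-week libraries spread over 4.17 to 113 CPM, it rose by 4.26 ± 0.89. *Fut9*, an α1,3-fucosyltransferase of Lewis x, rose by 5.32 ± 0.39 and 4.70 ± 0.68, and *Fut4* by 1.83 ± 0.13 and 1.81 ± 0.19. *B3gnt5*, which starts lacto-series glycolipids, rose by 3.76 ± 0.30 and 3.62 ± 0.54, *B3gnt8* by 3.83 ± 0.36 and 2.87 ± 0.46 and *B3galt5* by 1.76 ± 0.20 and 1.60 ± 0.41. The galactosyltransferases went both ways, and of the 7 β1,4-galactosyltransferases 2 rose and 2 fell in each strain. *B4galt4* fell by 1.05 ± 0.11 and 0.59 ± 0.09 and *B4galt3* with BSHlow by 0.45 ± 0.12, while with BSHhigh *B4galt5* fell by 0.38 ± 0.07 and *B3galt4*, which makes ganglioside GM1, by 0.69 ± 0.14. Of the 7 fucosyltransferases tested 4 rose and 1 fell with BSHlow, and 4 rose and none fell with BSHhigh. Among sialyltransferases *St3gal2* rose by 2.79 ± 0.40 and 2.99 ± 0.25, *St3gal6* by 2.44 ± 0.20 and 2.01 ± 0.34, *St6galnac4* by 2.32 ± 0.20 and 2.16 ± 0.29 and *St6gal1* by 1.22 ± 0.19 and 1.37 ± 0.14. *B4galt2* rose by 2.71 ± 0.43 and 3.27 ± 0.37 and *Galnt18* by 2.53 ± 0.37 and 2.24 ± 0.46.

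Members near the counting limit at 2 weeks also rose. *St8sia5* had 0 reads in all 4 BSHlow libraries at 2 weeks and 616 over the 4 non-tumor libraries at 12 weeks, at least 48.99-fold higher against a floor of 3 counts per library. Those 12-week libraries spread over 1.7 to 23.6 CPM. With BSHhigh *St8sia5* stood at 0 to 2.27 CPM at 2 weeks and rose by 2.60 on the log2 scale (edgeR adjusted p = 0.021). Of the fits that left out 1 library, 3 lost that call and 5 kept it. With BSHlow *Galnt17* had 3 and 184 reads, a ratio of 58.5 with a 95% counting interval of 19.7 to 286. *Galnt16* had 8 and 274 reads, a ratio of 32.7 with an interval of 16.4 to 76.5. Of the core 1 genes *C1galt1c1* fell in both strains, by 0.85 ± 0.20 and 0.52 ± 0.15 on the log2 scale. *C1galt1* rose with BSHhigh by 0.47 ± 0.16 and gave -0.03 ± 0.12 with BSHlow, which did not pass.

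Several members share sequence with neighbours, which makes their values less certain. Counts were not whole in at least 1 library for 10 member rows, and in all 23 libraries for *B3gnt2*, *Galnt2* and *Gal3st2*. The 2 rows of *St6galnac2* overlap on the same strand. Exons of 34 member rows overlap a gene on the opposite strand and those of 7 a gene on the same strand.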

How the data were processed

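RNA from 23 colon tissues was sequenced by the authors. Per the study's methods and the submitters' processing notes, reads were trimmed with Cutadapt and aligned to mm10 with STAR, and RSEM estimated counts per gene; the versions and the strand setting are not given in the sources used here. The authors deposited 1 table of RSEM estimated counts, not normalized, with 55450 gene rows, of which 1 was left out because a cell holds text. The labels describe a total RNA preparation and the methods a stranded mRNA preparation. The 3 BSHhigh tumor columns repeat names of BSHlow tumors and were assigned as a group through the study's supplementary table of the same libraries.

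Counts were rounded and tested in R 4.3.3 with edgeR 4.0.16 (filterByExpr, TMM scaling, glmQLFit and glmQLFTest), over the groups compared and over all genes that passed the filter, with an adjusted p threshold of 0.05. CPM values used TMM-scaled library sizes over all 23 libraries, and levels per kilobase the union of GENCODE M21 exons. Alternatives were limma 3.58.1 (voom), DESeq2 1.42.0, other scalings, filters and sample sets, a block for replicate number, and fits that each omitted 1 library. The fits were tested on simulated data. Python 3.11.15, pandas 2.3.3 and numpy 2.4.6 made the summaries. The family, the roles and the gene lists were chosen with earlier results of these data known. Named in each comparison were up to 10 higher and 10 lower members with the largest log2 fold change among those past the threshold with a mean of at least 1 CPM in the higher group and no overlap, the latter not for the interaction, and 18 textbook enzymes of colonic mucin glycans. Other members named, such as those without overlap that missed the threshold, were chosen after their values were seen.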

Additional observations from a re-analysis of the deposited data

Results flagged for a closer look

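Of 189 groups of 4 libraries checked, 5 held a library whose gap to its nearest neighbour, as a share of the range of the group, was above Dixon's 95% critical value. Chance gives about 1 in 20 such groups. *B4galt6* stood at 99.98 CPM in replicate 3 of the 2-week BSHlow colons, against 42.2 to 50.7 CPM in the others (gap share 0.853). *B4galnt4* stood at 5.42 CPM in replicate 4 of the same group, against 6.17 to 6.29 CPM (0.858). In the 2-week BSHhigh colons *St3gal5* stood at 10.9 CPM in replicate 2, against 1.63 to 2.998 CPM (0.853), and *Gal3st1* at 49.8 CPM in replicate 3, against 58.6 to 60.4 CPM (0.834). *St8sia5* stood at 0.0954 CPM in replicate 3 of the BSHlow tumors, against 0.244 to 0.257 CPM (0.924), a group with 2 to 5 reads per library.

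The difference between tumors and non-tumor tissues differed between the strains for 3 members by the interaction term of edgeR, with adjusted p-values of 0.0048 for *B3gnt7*, 0.027 for *B3galt5* and 0.031 for *Gal3st2*. The interaction was 4.11, 1.84 and 3.0 on the log2 scale in that order, each a smaller fall in BSHhigh mice.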

How the results depend on the processing

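Counts of members past the threshold moved by more than 1.5 times in 6 places, and the cause was not tested. Members higher in BSHhigh than in BSHlow tumors were 3 in the main test, 8 without a filter on low counts, 13 with DESeq2 (10 of them over 2-fold), 0 with limma-voom, 14 in a fit over all 12-week libraries (10 over 2-fold), and 0 to 7 when 1 library was left out, with 7 without BSHhigh tumor c and 0 without any other. Members with a positive interaction were 3, then 8 with DESeq2, 0 with limma-voom, 6 in the wider fit and 1 to 8 with 1 library left out, with 8 without tumor c. Higher members in non-tumor tissues were 0, and 8 with DESeq2. The 1 member called at 2 weeks gave 0 in the wider fit, 0 with the replicate block, and 0 to 1 with 1 library left out. With scaling by library size alone, members over 2-fold higher in BSHlow tumors than in non-tumor tissues were 7 in place of 4, and members lower at 12 than at 2 weeks with BSHhigh were 11 in place of 17. For fits that left out 1 library no share of all genes is given, so their counts do not tell members from other genes. No direction of a named member reversed. Across named members and settings that kept all libraries, 733 values kept their call and 23 lost it, and with 1 library left out 620 kept it and 74 lost it.

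Whether libraries that share a replicate number came from the same mouse is not given by the labels. Same-numbered deviations correlated between -0.173 and 0.26, and in no comparison all above 0.1. Between BSHlow tumors and non-tumor tissues, replicates 1 and 4 matched best with their own number (0.158 and 0.106), and replicates 2 and 3 did not. With at most 4 libraries a group, these correlations cannot decide the pairing. At 2 weeks the strains were in different mice, so a block for replicate number pairs no mouse there. Under that block the edgeR adjusted p of *St3gal4* at 2 weeks was 0.16. No paired analysis was possible for the BSHhigh tumors because their columns carry no replicate number. The number of libraries, 3 or 4 a group, limits the precision of every difference.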
